A study of Mus musculus with 3 samples.

Results

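The genes described here are mt-Nd1, mt-Nd2, mt-Nd3, mt-Nd4l, mt-Nd4, mt-Nd5, mt-Nd6, mt-Cytb, mt-Co1 and mt-Atp6, which are 10 of the 13 genes with an mt- symbol among the 32285 genes counted. They were listed by symbol, with earlier results of these data known. Their unique molecular identifiers (UMIs, which count captured RNA molecules) were summed over the cells of each marker-gated class in each library. They were then expressed as a share of all UMIs, and as a share of the UMIs of all 13 mt- genes. The second share gives the composition of the mitochondrial messages and does not depend on the total of nuclear messages.

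The study profiled islet cells of mice 9 months old by single-cell RNA sequencing of transcript 3' ends, in 1 library labelled ASF-KO, 1 labelled SC35-KO and 1 labelled WT. The labels use older names: ASF is now called SRSF1, and SC35 is now called SRSF2. Both are nuclear SR proteins that act in splice site choice. The labels do not give a strain, the cells in which a gene was deleted or the number of mice behind a library, and islets were picked by hand and dissociated with trypsin. With 1 library per genotype no difference between genotypes can be tested, so no p-value is given. Intervals are at 95% and reflect counting error alone. A genotype, its library and the mitochondrial DNA that its mice inherited, which the labels do not give, cannot be told apart. Srsf1 stood at 47.7, 53.7 and 43.3 CPM (UMIs scaled to a common library total) over the kept cells of the libraries labelled ASF-KO, SC35-KO and WT, and Srsf2 at 63.0, 36.6 and 33.8 CPM. Neither target was lower in its own knockout library than in WT on this scale, but a 3' tag that lies outside the deleted exons is no check of a knockout. Each library is therefore named by its label.

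Mitochondrial DNA encodes a small set of core subunits of the respiratory chain, while the rest are encoded in the nucleus. The mt-Nd genes encode core subunits of complex I, which takes electrons from NADH and pumps protons. mt-Cytb encodes the cytochrome b of complex III, mt-Co1 the catalytic subunit of cytochrome c oxidase (complex IV), and mt-Atp6 a membrane subunit of ATP synthase (complex V) on the path of the protons. Both strands are transcribed as long precursors that are cut at the transfer RNAs between the genes, and most of the messages receive a poly(A) tail. In beta cells the ATP made by this chain links glucose to the release of insulin.

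The sequences below are those of mt-Nd2 and mt-Nd3, whose shares differed between libraries, and of the pairs that overlap. They are read from the GENCODE M21 transcripts (GRCm38) 5′ to 3′ on each gene's own strand. For mt-Nd2 and mt-Nd3 they show the last 60 bases, with runs of 4 or more A in capitals (mt-Nd2 has none there). mt-Nd2 ends at chrM:4892-4951 on the plus strand, and mt-Nd3 at chrM:9747-9806 on the plus strand.
mt-Nd2: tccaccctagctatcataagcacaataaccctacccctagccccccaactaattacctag
mt-Nd3: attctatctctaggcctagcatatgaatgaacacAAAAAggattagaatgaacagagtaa

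mt-Nd4l and mt-Nd4 overlap by 7 bases on the plus strand, and in mammals both are translated from a single shared message. The next lines give the last 60 bases of mt-Nd4l (chrM:10114-10173) and the first 60 of mt-Nd4 (chrM:10167-10226), with the shared bases in capitals.
mt-Nd4l: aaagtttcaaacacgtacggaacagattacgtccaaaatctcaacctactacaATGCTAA
mt-Nd4: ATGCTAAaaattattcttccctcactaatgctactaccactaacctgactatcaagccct

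mt-Nd5 on the plus strand and mt-Nd6 on the minus strand meet tail to tail and overlap by 14 bases, in capitals in the next lines. These hold the last 60 bases of mt-Nd5 (chrM:13506-13565) and of mt-Nd6 (chrM:13552-13611, read on the minus strand). mt-Nd6 is the sole member on the minus strand.
mt-Nd5: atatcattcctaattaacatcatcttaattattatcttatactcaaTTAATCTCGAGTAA
mt-Nd6: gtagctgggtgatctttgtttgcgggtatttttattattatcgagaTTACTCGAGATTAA

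A run of A inside a message can be caught by the oligo-dT primers of such kits. The run AAAAAA, searched on the gene's strand, was in the last 60 bases of 0 of 10 members, against 8.19% of 58781 protein-coding transcripts. It was in the last 250 bases of 3 of 10 members (mt-Nd1, mt-Nd2 and mt-Nd5), against 16.4% of 58447 transcripts. This describes the sequence alone. Runs of A past a gene's annotated end, further along a shared message, were not searched. The use of strand in the counting is not given in the sources used here, so the shares of overlapping genes carry that uncertainty, and nuclear copies of mitochondrial DNA could share reads with any member.

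After the filters, 7531 barcodes of the library labelled ASF-KO, 11879 of SC35-KO and 9359 of WT were kept, with medians of 17102, 10033 and 14489 UMIs. The libraries held between 148320213 and 154099078 UMIs, and pairs of libraries shared 32 to 45 barcodes. Insulin-rich (beta-gated) cells numbered 3929 in ASF-KO, 5195 in SC35-KO and 4740 in WT, so each beta sum held at least 93261612 UMIs. Glucagon-rich (alpha-gated), somatostatin-rich (delta-gated), Ppy-rich (gamma-gated) and endothelial-gated cells also passed the minimum of 50 cells in every library, with between 106 and 2702 cells. Of the 9 beta markers that were not used for gating, 7, 7 and 8 were highest in beta-gated cells in ASF-KO, SC35-KO and WT. All 10 endothelial markers were highest in their own class in each library, but the gamma gate rests on little else than its hormone, since 2 of its 5 other markers were highest there in each library. Endothelial-gated cells, which do not make insulin, held a median of 5.97%, 5.24% and 2.53% insulin UMIs in ASF-KO, SC35-KO and WT, a measure of free RNA. The part of free RNA in the values below was not tested.

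The 10 members together were a small share of all UMIs in every class. In beta-gated cells they made up 2.09% in ASF-KO, 1.74% in SC35-KO and 2.11% in WT. The ASF-KO over WT ratio was 0.991 (0.989 to 0.992) and the SC35-KO over WT ratio 0.826 (0.824 to 0.828). Beta-gated cells were the sole class of the 5 in which neither knockout library stood above WT. Over all mt- genes the ASF-KO over WT ratio in beta-gated cells was 0.928 (0.927 to 0.930), lower than over the members alone.

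Outside the beta gate the library labelled ASF-KO stood highest in every class. In alpha-gated cells the summed share was 2.93% in ASF-KO, 1.81% in SC35-KO and 1.73% in WT, and in delta-gated cells 2.49%, 2.25% and 1.70% in the same libraries. Gamma-gated cells held 2.17% in ASF-KO, 1.34% in SC35-KO and 1.18% in WT, and endothelial-gated cells 2.70%, 2.15% and 1.96%. ASF-KO over WT was thus 1.70 in alpha-gated, 1.47 in delta-gated, 1.84 in gamma-gated and 1.38 in endothelial-gated cells. SC35-KO over WT was 1.05, 1.33, 1.13 and 1.10 in these classes.

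The beta result depended on what the members were divided by. Insulin took a median of 65.5% of the UMIs outside the mt- genes in beta-gated cells of ASF-KO and 64.6% in SC35-KO, against 54.9% in WT. With hormone genes left out of the total, the ratio to WT was 1.29 for ASF-KO and 1.10 for SC35-KO, so the direction in beta-gated cells turned. On that scale both knockout libraries were above WT in all 5 classes, with ratios of 1.29 to 1.76 for ASF-KO and 1.10 to 1.39 for SC35-KO.

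**Figure D1:**
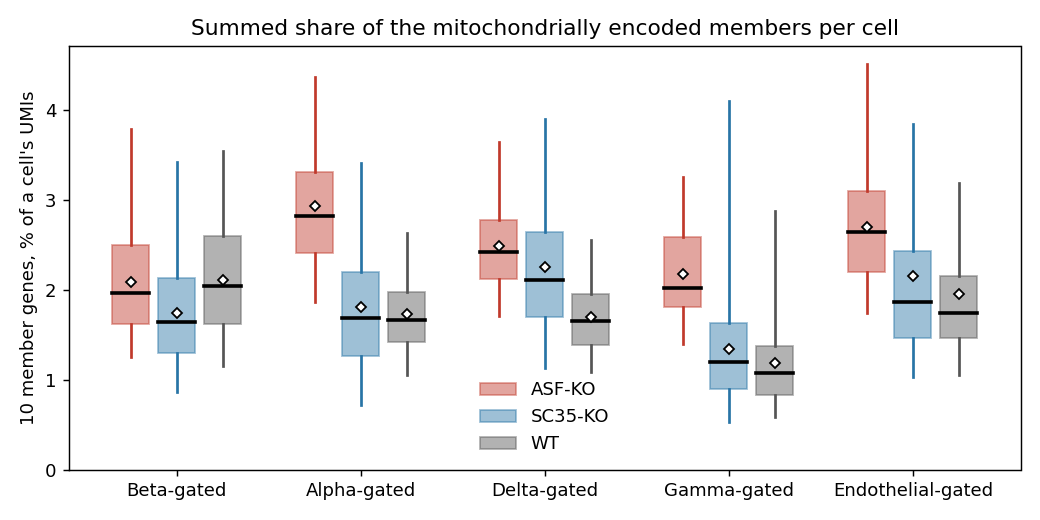
Summed share of the 10 members in the UMIs of each cell (y axis, percent), by marker-gated class (x axis) and library (colour, with ASF-KO on the left and WT on the right). Boxes span the 25th to 75th percentile over cells, whiskers the 5th to 95th, black lines are medians and diamonds the share of the summed UMIs. Cells of 1 library are not replicates. The beta-gated medians are 1.97% in ASF-KO, 1.64% in SC35-KO and 2.05% in WT, while ASF-KO has the highest median in each other class.

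The composition of the mitochondrial messages does not depend on hormone messages. Among the members it differed most between libraries in a few complex I genes. The mt- genes that are no members also differed in ASF-KO. Together, their share of mt- UMIs in ASF-KO was 0.867 (0.864 to 0.869) times WT in beta-gated cells. It was 0.904 times in alpha-gated and 0.880 times in delta-gated cells. In SC35-KO the members together were 0.988 to 1.01 times WT over the 5 classes, which leaves the other mt- genes together near WT. mt-Nd3, a small core subunit, showed the largest difference. It made up 1.03% (1.02 to 1.04) of the mt- UMIs of beta-gated cells in ASF-KO, 1.77% (1.75 to 1.78) in SC35-KO and 2.99% (2.97 to 3.01) in WT. Both knockout libraries were below WT, and ASF-KO was the lowest.

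The same order of libraries held for mt-Nd3 in each other class. Its share was 1.14% in ASF-KO, 2.03% in SC35-KO and 3.62% in WT in alpha-gated cells, and 0.774%, 1.35% and 2.40% in delta-gated cells. It was 0.980%, 1.69% and 3.05% in endothelial-gated cells of these libraries, and 1.15% in ASF-KO against 3.62% in WT in gamma-gated cells, with SC35-KO between them. Over the 5 classes the ratio to WT stayed within 0.315 to 0.344 for ASF-KO and within 0.552 to 0.591 for SC35-KO. As a share of all UMIs mt-Nd3 was also below WT in all 5 classes in both knockout libraries, at 0.319 to 0.559 times WT in ASF-KO and 0.494 to 0.738 times in SC35-KO. With hormone genes left out of the total the ratios were 0.417 to 0.528 and 0.623 to 0.773, so the direction did not turn with this scaling.

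mt-Nd2, another membrane subunit of complex I, stood on opposite sides of WT in the knockout libraries. Its share of mt- UMIs in beta-gated cells was 8.27% (8.24 to 8.30) in ASF-KO, 3.79% (3.77 to 3.82) in SC35-KO and 6.10% (6.08 to 6.13) in WT. Across the 5 classes its ratio to WT was 1.23 to 1.35 in ASF-KO and 0.621 to 0.714 in SC35-KO. The direct ratio of ASF-KO to SC35-KO in beta-gated cells was 2.18 (2.16 to 2.20).

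The number of mt-Nd2 UMIs for each mt-Nd3 UMI set the library labelled ASF-KO apart from both others. In beta-gated cells it was 8.04 (7.95 to 8.13) in ASF-KO, 2.15 (2.12 to 2.17) in SC35-KO and 2.04 (2.03 to 2.06) in WT. The lowest class value in ASF-KO was 6.27 (5.74 to 6.86, gamma-gated), above the highest in SC35-KO of 2.92 (2.81 to 3.03) and in WT of 2.46 (2.36 to 2.56), both in delta-gated cells. Both genes lie on the same strand and are cut from the same precursor.

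The UMIs counted for mt-Nd4l and mt-Nd4, whose ends are printed above, did not keep a fixed ratio to each other between libraries. mt-Nd4l ends far upstream of the 3' end of the shared message, since mt-Nd4 is 1378 bases long. The longest run of A in mt-Nd4, of 7 bases, starts 1318 bases from its 3' end. Where on the message these UMIs were primed was not tested, so unlike counts do not show unlike RNA levels. mt-Nd4l made up 1.74% of the mt- UMIs of beta-gated cells in ASF-KO, 0.729% in SC35-KO and 1.07% in WT. mt-Nd4 made up 8.54% in ASF-KO, 6.31% in SC35-KO and 6.78% in WT. For SC35-KO the ratio to WT was 0.554 to 0.684 for mt-Nd4l over the 5 classes, against 0.931 to 1.09 for mt-Nd4. For ASF-KO it was 1.23 to 1.36 for mt-Nd4, and 0.988 to 1.64 for mt-Nd4l, whose ratio was above 1 in 4 of the 5 classes.

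mt-Nd5 and mt-Nd6, the pair that overlaps on opposite strands, were highest in the library labelled ASF-KO. mt-Nd5, a large subunit of the proton-pumping arm, had shares of 2.70% in ASF-KO, 1.33% in SC35-KO and 1.52% in WT in beta-gated cells, and its ratio to WT over the 5 classes was 1.46 to 1.77 for ASF-KO and 0.860 to 0.934 for SC35-KO. mt-Nd6 was the rarest member, with 3927, 1562 and 1718 UMIs in the beta sums of ASF-KO, SC35-KO and WT, or 0.122%, 0.0633% and 0.0499% of the mt- UMIs. Its ratio to WT ranged from 1.07 to 2.45 over the 5 classes in ASF-KO and from 0.626 to 1.27 in SC35-KO, the widest range of any member in each.

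The remaining members differed little between libraries. mt-Nd1 made up 4.40% of the mt- UMIs of beta-gated cells in ASF-KO, 4.06% in SC35-KO and 4.47% in WT. mt-Cytb made up 12.3%, 11.8% and 11.4%, and mt-Co1, the most counted member in beta-gated cells, 16.7%, 18.9% and 17.5% in the same libraries. mt-Atp6 made up 15.2% in ASF-KO, 17.0% in SC35-KO and 14.7% in WT. Over the 5 classes these 4 genes stayed within 0.865 to 1.22 times WT in both knockout libraries, and in SC35-KO mt-Atp6 was 1.14 to 1.22 times WT. Since the shares of the 13 mt- genes add up to a fixed total, a lower share of some genes raises that of the others.

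**Figure D2:**
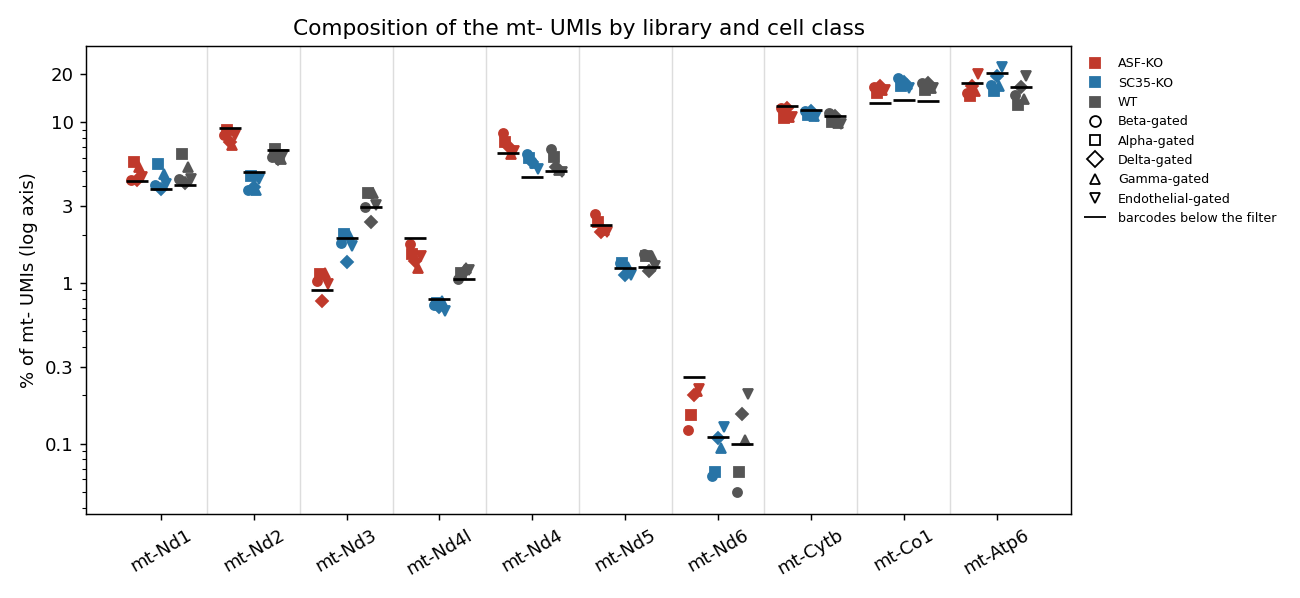
Share of each member in the mt- UMIs (y axis, percent, log scale) in each library (colour, ASF-KO on the left of each gene and WT on the right). Each marker is the sum over a class of cells, and black dashes are the sums over barcodes below the cell filter. For mt-Nd3 the libraries do not overlap in any class, with 0.774% to 1.15% in ASF-KO, 1.35% to 2.03% in SC35-KO and 2.40% to 3.62% in WT, whereas for mt-Co1 and mt-Cytb the colours lie at like heights.

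Levels per length followed another order than UMIs. In beta-gated cells mt-Atp6 had the highest level per length, at 6543 CPM per kb in ASF-KO, 6609 in SC35-KO and 6832 in WT. mt-Co1 stood at 3168, 3230 and 3579 CPM per kb and mt-Cytb at 3171, 2723 and 3144 CPM per kb in the same libraries, with no fixed order between them. mt-Nd3 was at 869 CPM per kb in ASF-KO, 1344 in SC35-KO and 2721 in WT, so it ranked above mt-Nd2 in SC35-KO and WT (968 and 1862 CPM per kb) and below it in ASF-KO (2341 CPM per kb). mt-Nd6 was the lowest in each library, at 69.2, 32.3 and 30.5 CPM per kb. A kit that tags 3' ends does not count in proportion to length, which limits such an order.

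Single cells showed the same composition as the sums. In beta-gated cells with at least 100 mt- UMIs (3872 cells in ASF-KO, 5111 in SC35-KO and 4602 in WT) the median share of mt-Nd3 was 0.990% in ASF-KO, 1.70% in SC35-KO and 2.95% in WT. The 5th to 95th percentiles were 0.393% to 1.72% in ASF-KO, 0.651% to 3.15% in SC35-KO and 1.69% to 4.35% in WT. The range of ASF-KO thus ended about where that of WT began, while SC35-KO overlapped both. For mt-Nd2 the medians were 8.17%, 3.68% and 5.98%.

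The library order of mt-Nd3 and mt-Nd2 was the same in cells of different depth and mt- share. Beta-gated cells were split by UMIs into 4 strata and by mt- share into 6, and strata of at least 20 cells were read, which left out 1 stratum of ASF-KO (17 cells) and 2 of WT (9 and 2 cells). mt-Nd3 ranged from 0.915% to 1.05% in ASF-KO, from 1.70% to 2.05% in SC35-KO and from 2.70% to 3.20% in WT. mt-Nd2 ranged from 7.87% to 8.71% in ASF-KO, from 3.50% to 4.66% in SC35-KO and from 5.43% to 6.59% in WT. The strata of the libraries did not overlap for either gene. Other members varied more between strata. mt-Nd4 ranged from 6.12% to 8.75% in ASF-KO and from 6.02% to 7.39% in WT, which overlap, and mt-Co1 from 12.6% to 17.4% in ASF-KO and from 16.7% to 18.7% in WT.

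Barcodes below the cell filter, which hold few nuclear-encoded UMIs, carried the same library pattern. They numbered 4965 in ASF-KO, 2040 in SC35-KO and 907 in WT, with the members at 8.22%, 16.7% and 9.63% of their UMIs. Among their mt- UMIs mt-Nd3 made up 0.900% in ASF-KO, 1.90% in SC35-KO and 2.95% in WT, and mt-Nd2 9.22%, 4.87% and 6.75%. The mt-Nd3 values lay within the range of the 5 kept classes of the same library. The mt-Nd2 value was above the highest kept class in ASF-KO (8.98%) and in SC35-KO (4.63%), both alpha-gated, and within the range in WT.

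Cell classes differed in composition in ways that held in all 3 libraries. With 3 libraries an exact sign-flip test over libraries cannot give a two-sided p under 0.25, so these ratios to beta-gated cells are given without one. mt-Nd1 was higher in alpha-gated cells, at 1.28 times the beta share in ASF-KO, 1.35 in SC35-KO and 1.43 in WT, and was 1.17 to 1.21 times in gamma-gated cells. mt-Atp6 was higher in endothelial-gated cells, at 1.32, 1.29 and 1.31 times the beta share in ASF-KO, SC35-KO and WT, and in delta-gated cells, at 1.11 to 1.15 times. mt-Nd3 was lower in delta-gated cells, at 0.753, 0.766 and 0.804 times the beta share. These class ratios agreed between libraries although the share of mt-Nd3 itself in beta-gated cells was 0.344 times that of WT in ASF-KO.

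mt-Nd4 and mt-Nd6 lay on opposite sides of beta-gated cells in every other class. mt-Nd4 was below the beta share in 12 of 12 ratios (4 classes in 3 libraries), from 0.722 to 0.947. mt-Nd6 was above it in 12 of 12, from 1.05 to 4.10, and 11 of the 12 intervals lay above 1. The exception was alpha-gated cells in SC35-KO, at 1.05 (0.942 to 1.18). mt-Nd6 was highest relative to beta in endothelial-gated cells, at 1.79 in ASF-KO, 2.02 in SC35-KO and 4.10 in WT. mt-Cytb was below the beta share in 12 of 12 ratios as well, but by less, from 0.860 to 0.999. Of its 12 intervals 10 lay below 1, and those of delta-gated cells in ASF-KO and SC35-KO included 1. For each gene the ratios of a library are divided by the same beta share, so the 12 are not separate observations.

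**Figure D3:**
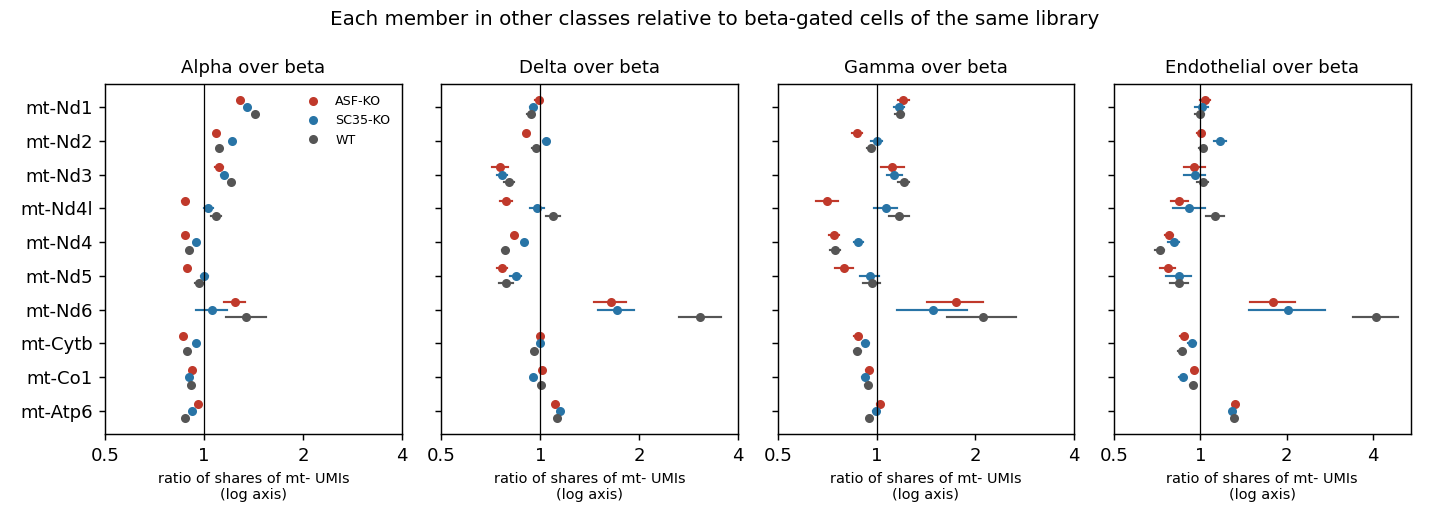
Share of mt- UMIs of each member in alpha-, delta-, gamma- and endothelial-gated cells divided by that in beta-gated cells of the same library (x axis, log scale; colours mark libraries, ASF-KO above WT in each row). Bars are 95% counting intervals. mt-Nd1 lies right of 1 in alpha-gated cells, mt-Atp6 right of 1 in endothelial-gated cells and mt-Nd4 left of 1 in every panel, in each library.

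The members fell into a set that varied more by library and a set that varied more by class. For mt-Nd2, mt-Nd3, mt-Nd4l and mt-Nd5 the range over library means was larger than that over class means, at 0.97 against 0.27, 1.63 against 0.58, 1.01 against 0.09 and 0.88 against 0.33 on the log2 scale. For mt-Nd1 and mt-Atp6 the class range was larger, at 0.50 and 0.51 against 0.14 and 0.24 over libraries. The class range of mt-Nd6 was also larger, at 1.30, but its library range of 0.995 was near that of mt-Nd2 and mt-Nd4l. mt-Nd4 (0.38 for classes, 0.37 for libraries), mt-Cytb (0.17 and 0.13) and mt-Co1 (0.14 and 0.12) were near equal. Adding a library and a class term left residuals of at most 0.10 log2 for 8 members, and up to 0.23 for mt-Nd4l and 0.39 for mt-Nd6.

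Other classes passed 50 cells in WT alone, apart from macrophages, which also passed in SC35-KO. Ductal-gated cells of WT (87 cells) had the highest mt-Co1 share, at 23.3% against 17.5% in beta-gated cells, and a low mt-Nd2 share of 3.64%. Pericyte-gated cells of WT (97 cells) held 12.2% mt-Cytb, against 7.71% in T-gated or NK-gated cells (114 cells), and 3.06% of all their UMIs were members. In macrophage-gated cells mt-Nd3 made up 1.51% of the mt- UMIs in SC35-KO (89 cells) and 2.88% in WT (144 cells), a ratio of 0.524 (0.438 to 0.623), with mt-Nd2 at 0.730 and mt-Nd4l at 0.546 times WT. The summed members there stood at 2.27% of all UMIs in SC35-KO and 2.19% in WT.

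The members were next read against all other genes of the same sums. The median gene in beta-gated cells had a ratio to WT of 0.740 for ASF-KO (6569 genes at 10 CPM or more) and 0.742 for SC35-KO (6538 genes), so ratios are given relative to it. For ASF-KO, 5 of 10 members were at least 1.5-fold above the median gene and 1 was below, with a member median of 1.47, where 9.13% of all genes were that far above and 8.1% that far below. Those above were mt-Nd6 (3.07), mt-Nd5 (2.22), mt-Nd4l (2.05), mt-Nd2 (1.70) and mt-Nd4 (1.58), all subunits of complex I, as most members are. The gene below was mt-Nd3 (0.431), which also belongs to complex I. For SC35-KO, 0 of 10 members were above and 1 below, where 3.69% of all genes were above and 2.55% below, and the member median was 1.04. That gene was mt-Nd3 at 0.666, at the very edge of the 1.5-fold limit, and it was within the limit once cells marked as doublets by Scrublet were left out.

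Other classes gave like counts for ASF-KO. In alpha-gated cells 7 members were above and 1 below (4.43% and 6.65% of all genes), in delta-gated cells 6 and 1 (5.54% and 7.65%), in gamma-gated cells 4 and 1 (9.16% and 12.2%) and in endothelial-gated cells 4 and 1 (9.8% and 13.2%). The gene below was mt-Nd3 in each of them, at 0.406 to 0.492 relative to the median gene, and mt-Nd2, mt-Nd4 and mt-Nd5 were above in each, with mt-Nd5 at 1.93 to 2.54. For SC35-KO 0 members were past the limit in alpha-gated cells (2.45% of all genes above and 2.64% below), 1 was above in delta-gated cells (3.27% above, 3.96% below), 1 was below in gamma-gated cells (5.61% above, 7.2% below) and 3 were below in endothelial-gated cells (8.93% above, 10.8% below). These were mt-Atp6 (1.54) in delta-gated, mt-Nd3 (0.656) in gamma-gated, and mt-Nd3 (0.586), mt-Nd4l (0.587) and mt-Nd6 (0.663) in endothelial-gated cells. Both knockout libraries are set against the same WT library.

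The nuclear-encoded partners were counted in the same way. Of 78 nuclear-encoded genes of complexes I to V, cytochrome c and the ATP synthase inhibitor, all measured, 10 were above and 7 below the 1.5-fold limit in beta-gated cells of ASF-KO, with a median of 1.08 relative to the median gene, where 9.13% of all genes were above and 8.1% below. In beta-gated cells of SC35-KO 3 were above and 1 below, with a median of 1.17, where 3.69% of all genes were above and 2.55% below. In the other classes of ASF-KO more were below than above: 20 against 1 in alpha-gated, 17 against 0 in delta-gated, 23 against 1 in gamma-gated and 30 against 0 in endothelial-gated cells, with medians from 0.748 to 0.823. Of all genes 6.65%, 7.65%, 12.2% and 13.2% were below in these classes, and 4.43%, 5.54%, 9.16% and 9.8% above. In these same classes 4 to 7 of the 10 members stood above the limit. For SC35-KO the medians outside the beta gate were 0.954 to 1.16, with 2 or 3 genes below and 0 or 1 above. There 2.64% to 10.8% of all genes were below and 2.45% to 8.93% above.

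Complex I, to which 7 of the members belong, had 37 nuclear-encoded genes, of which 4 were above and 3 below in beta-gated cells of ASF-KO, near the share of all genes. Values of single genes are given as a description. Ndufs8, which carries iron-sulfur clusters, was at 38.7 CPM in ASF-KO and 30.4 CPM in WT (1.72 relative to the median gene). Ndufa3 and Ndufc1, accessory subunits, were lower, at 32.9 CPM in ASF-KO against 80.8 in WT (0.550) and at 70.3 against 168 CPM (0.564). In beta-gated cells of SC35-KO 3 complex I genes were above and 0 below, where 3.69% of all genes were above and 2.55% below. Among the 3, Ndufb3 was at 1.59 and Ndufc2 at 1.52. The median was 1.08 for ASF-KO and 1.16 for SC35-KO.

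In the lists of the other complexes 1 to 5 genes each passed the limit in beta-gated cells of ASF-KO, where 17.2% of all genes passed it either way. Of 4 complex II genes, Sdhb (1.68) and Sdhd (1.57) were above in ASF-KO. Of 10 genes of complex III and cytochrome c, Cycs, the electron carrier cytochrome c, was at 81.2 CPM in ASF-KO and 38.5 CPM in WT (2.85), and Uqcr10, a small complex III subunit, was lower at 0.658. Of 11 complex IV genes Cox5a was above (1.57). Of 16 complex V genes 2 were above and 3 below, with Atp5g1, which encodes the c subunit of the rotor, at 244 CPM in ASF-KO and 134 CPM in WT (2.46), and Atp5k, the e subunit, at 73.0 and 220 CPM (0.448). Atp5k was also the sole complex II to V gene past the limit in beta-gated cells of SC35-KO, at 93.2 CPM against 220 CPM in WT (0.571).

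**Figure D4:**
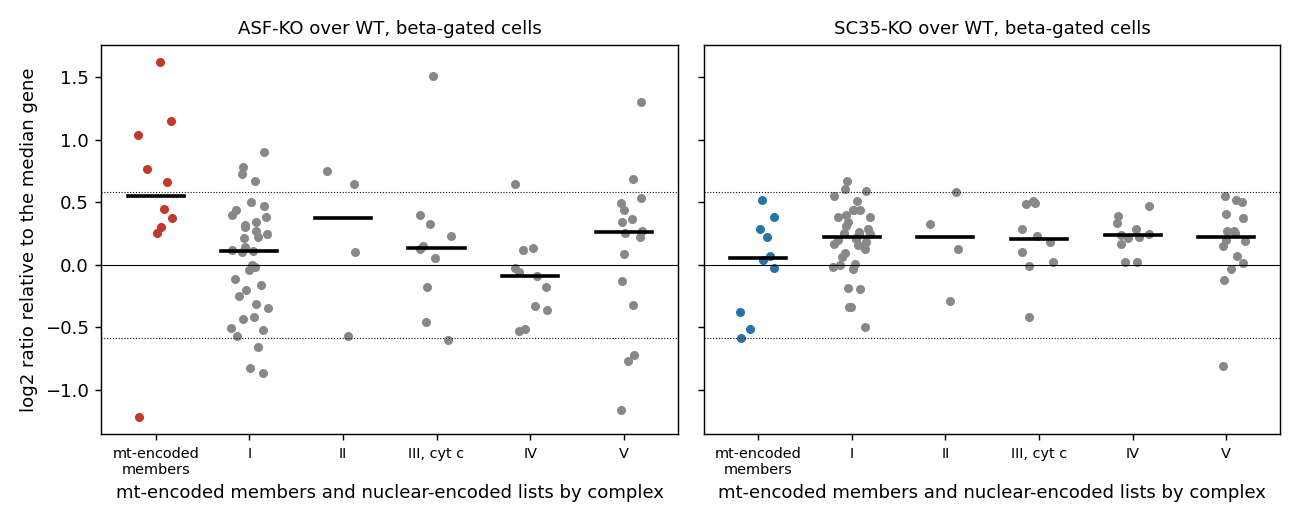
Log2 ratio to WT relative to the median gene (y axis) in beta-gated cells of ASF-KO (left) and SC35-KO (right) for the 10 members (colour) and the nuclear-encoded genes of each complex (grey). Each point is a gene, black lines are medians and dotted lines mark 1.5-fold. The members spread from -1.21 (mt-Nd3) to 1.62 (mt-Nd6) in ASF-KO, while the list medians of nuclear-encoded genes lie between -0.09 and 0.38.

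Many genes that make and process mitochondrial RNA were too low to read. Of 14 transcription and replication genes 3 were measured in beta-gated cells. Tfam, which packages mitochondrial DNA and starts its transcription, was at 14.0 CPM in ASF-KO, 13.8 in SC35-KO and 16.7 in WT. None of the 3 passed the limit in either library, where 17.2% of all genes passed it either way in ASF-KO and 6.24% in SC35-KO. Of 20 RNA processing genes 9 were measured in ASF-KO, with 2 above and 1 below. Rexo2, an exonuclease of short RNAs, was at 82.8 CPM in ASF-KO and 43.1 in WT (2.60), and Slirp, which with Lrpprc stabilises messages of the mitochondrial heavy strand, at 16.5 and 41.2 CPM (0.541). Lrpprc itself was at 27.5 and 34.0 CPM (1.09). Fastk, of which a mitochondrial form is needed for the mt-Nd6 message, was at 14.8 CPM in ASF-KO and 12.1 in WT (1.65). In SC35-KO none of 8 measured genes of this list passed the limit.

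Lists of translation, quality control and stress were counted in beta-gated cells beside the same 17.2% of all genes in ASF-KO and 6.24% in SC35-KO. Of 10 measured mitochondrial translation genes Tsfm was above in ASF-KO (1.74), and of 10 chaperones and proteases Hspa9 was below (0.653). Of 8 measured biogenesis and mitophagy genes 0 passed in ASF-KO. In SC35-KO none of the 9, 10 and 8 measured genes of these lists passed. Of 7 measured stress and leakage genes, Jun and Fos were above in ASF-KO, at 2.59 and 1.87, and Ddit3 was below, at 0.640. Jun and Fos are immediate-early genes that also answer to dissociation. In SC35-KO Hspa1b was below, at 0.626.

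The stress and leakage list, which holds nuclear RNAs, heat shock genes and immediate-early genes, stood lower in most other classes, where the summed members were above WT. In SC35-KO 6 of 8 measured genes were below in alpha-gated cells, with a list median of 0.558 relative to the median gene, 5 of 7 in delta-gated cells (0.403), 5 of 8 in gamma-gated cells (0.504) and 2 of 8 in endothelial-gated cells (0.762), and 0 were above. In ASF-KO 4 of 8 were below and 1 above in alpha-gated cells (0.681), 5 of 8 below and 0 above in gamma-gated cells (0.551) and 4 of 8 below and 0 above in endothelial-gated cells (0.691). Delta-gated cells of ASF-KO had 1 of 7 below and 3 above (0.930). The shares of all genes below were 2.64% to 10.8% in these classes of SC35-KO and 6.65% to 13.2% in those of ASF-KO. The part of handling and RNA quality in the members' levels was not tested.

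Over the 21 sums of class and library, the genes whose log2 CPM followed that of the summed members most closely, among 1106 genes ranked, were Gm26917 (Pearson r of 0.74), Hspa4 (0.73), Atp5b (0.73), Zfp106 (0.71) and Prpf38b (0.70). Atp5b encodes the catalytic beta subunit of ATP synthase and ranged from 116 to 696 CPM. The most opposed were Ppy (-0.59), Pyy (-0.50), Scg5 (-0.49), Cltrn (-0.46) and Tceal9 (-0.45). Ppy ranged from 616 to 487678 CPM and Pyy from 428 to 120870 CPM. All genes of a sum share its total, so a hormone with so large a part lowers the members' CPM by arithmetic. The sums share 3 libraries and differ in depth, so these are descriptions with no test.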

How the data were processed

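The authors' deposited files held UMI counts per gene and barcode, whole numbers with no normalization, and the submitters' processing notes list mm10, Seurat, STAR and Cell Ranger 5.0.0 with no role for each. The lowest barcode totals were 557, 500 and 500 UMIs (ASF-KO, SC35-KO, WT). Barcodes with at least 1000 UMIs and 500 genes outside the mt- genes were kept, with no limit on the mt- share, which is the quantity measured. Classes were gated on UMIs outside the mt- genes: beta at 30% insulin, alpha and delta at 5% and gamma at 10% of their hormone, and other classes from at least 3 detected markers making up 0.2%. These limits were set after hormone shares were seen. Barcodes passing several gates (229, 781 and 384) were left out as likely doublets, and 642, 830 and 709 passed none; Scrublet, which marked 349, 981 and 360 kept barcodes, was an alternative. UMIs were summed per class and library. Shares carry Clopper-Pearson and ratios exact conditional binomial 95% intervals. No test between genotypes was possible. The rule for named genes takes every member, the 5 most and least alike genes, and from each list the 2 furthest above and below the median gene, of which mainly those past the limit are printed; an item that the rule names is not reported here. Lrpprc was named in addition, after its values were seen. The members and lists were chosen with earlier results of these data known. Tools were scanpy 1.11.5, matplotlib 3.10.9, pandas 2.3.3, scipy 1.17.1 and numpy 2.4.6 under Python 3.11.15.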

Additional observations from a re-analysis of the deposited data

Results flagged for a closer look

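The summed share of the 10 members lay on opposite sides of WT in beta-gated and in other cells. Against a ratio to WT of 0.991 in beta-gated cells, the ratio was 1.70 in alpha-gated, 1.47 in delta-gated, 1.84 in gamma-gated and 1.38 in endothelial-gated cells. In the library labelled SC35-KO the ratio was 0.826 in beta-gated cells, against 1.05 in alpha-gated, 1.33 in delta-gated, 1.13 in gamma-gated and 1.10 in endothelial-gated cells. With 1 library per genotype the difference between classes was not tested. With hormone genes left out of the total, beta-gated cells stood at 1.29 for ASF-KO and 1.10 for SC35-KO, on the same side of WT as the other classes.

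Barcodes below the cell filter, which enter no sum of a class, held the members at 16.7% of their UMIs in the library labelled SC35-KO, against 8.22% in ASF-KO and 9.63% in WT.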

How the results depend on the processing

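No paired analysis was possible because, for the comparison of genotypes, each has 1 library and no replicate number, and no library could be left out in turn. The summed member share in beta-gated cells, ASF-KO over WT (0.991), was 0.984 and 0.983 with barcodes of at most 20% and 10% mt- UMIs, 0.985 with at least 5000 UMIs and 1500 genes, 1.04 with no minimum, 0.997 with a stricter gate, 0.961 as a median over cells, 1.29 without hormone genes in the total and 1.28 with median-of-ratios size factors. SC35-KO over WT (0.826) was 0.814, 0.810, 0.810, 0.873, 0.821, 0.800, 1.10 and 1.09 in that order. The side of WT thus turned for ASF-KO with no minimum and for both libraries under the last 2 scalings. Leaving out Scrublet doublets moved neither beyond counting error. The count of members 1.5-fold from the median gene stayed at 6 for ASF-KO under all 8 alternatives, and for SC35-KO went to 0 without Scrublet doublets, against 1 otherwise. Leaving out hormone genes and median-of-ratios size factors scale all genes alike. That scaling cancels in a count relative to the median gene, so these 2 alternatives are no check of it. The 20 ratios of single members' mt- shares in beta-gated cells kept their side of 1 in all 138 alternative values, and none moved by more than 1.08-fold. Counting error limits mt-Nd6 most. It says nothing of the spread between mice.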
